A study of Rattus norvegicus with 24 samples.

Results

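The normal serum microRNA profile of the Wistar Kyoto rat is described here from 6 male rats kept on normal facility chow and exposed to filtered air. The 6 libraries are all those labelled diet normal and exposure air, out of 23 libraries in the deposited tables and 24 samples in the labels. This group was chosen with earlier results of these data known. The wider study crossed the normal diet or a diet with 6% fish oil by weight with air or ozone, and no other group is used or compared here. The rats came to the facility at 4 weeks of age, ate the chow for 8 weeks and then breathed filtered air for 4 h on each of 2 days. Blood was taken from the abdominal aorta. Small RNA was isolated from 100 µl of serum with an on-column DNase step, and libraries made from 10 ng of it were read for 50 cycles. The labels carry 1 animal number per library and do not say which rats shared a cage, so the spread given below is the spread between these 6 samples.

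MicroRNAs (miRNAs) are short RNAs cut from a hairpin precursor, and each arm of the hairpin (5p or 3p) can give a mature miRNA. A mature miRNA lowers the output of target mRNAs, which it finds mainly through its seed, bases 2 to 8 from its 5′ end, so miRNAs with the same seed form a family. In serum they occur outside cells, bound to Argonaute proteins, in vesicles and on lipoproteins, and they come from blood cells, platelets, vessel walls and organs such as the liver. In a bulk fluid such as serum, fewer cells of a type and less RNA per cell cannot be told apart.

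The sequences of the leading miRNAs are shown because they define the families and arms used below. They were matched by name to RefSeq for the rat assembly GRCr8, where 342 of the 371 miRNAs with a count had an entry. Those 342 held 94.5% of the counts and included 18 of the 20 most abundant names; miR-328a-3p and miR-30d-5p are given by name alone. Capitals mark the seed. The 6 most abundant miRNAs each had a seed of their own:
miR-191a-5p: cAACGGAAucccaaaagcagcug
miR-143-3p: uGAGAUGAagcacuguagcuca
miR-192-5p: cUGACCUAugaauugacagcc
miR-22-3p: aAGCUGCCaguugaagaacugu
miR-128-3p: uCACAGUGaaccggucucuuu
miR-122-5p: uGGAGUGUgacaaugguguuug

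The let-7, miR-25/92 and miR-30 families shared a seed among several serum members, and the most abundant of those with a sequence here were these:
let-7i-5p: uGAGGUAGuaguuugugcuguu
let-7c-5p: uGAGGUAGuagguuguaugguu
let-7b-5p: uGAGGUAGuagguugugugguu
miR-25-3p: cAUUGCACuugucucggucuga
miR-92a-3p: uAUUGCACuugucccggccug
miR-92b-3p: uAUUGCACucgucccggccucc
miR-30a-5p: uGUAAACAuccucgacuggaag
miR-30e-5p: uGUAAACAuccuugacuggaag

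The libraries held between 45372 counts (rat 4) and 88397 counts (rat 2) in miRNAs, with a mean of 65638 ± 15675 (SD, n = 6). No source used here states the total behind the authors' normalized values (RPM); dividing the deposited counts by them gave 2652012 to 7367251 reads, called the implied read total, and the miRNA counts were 0.848% (rat 5) to 2.34% (rat 3) of it. The limit that a count of 0 allows, 3 counts, is 0.00339% to 0.00661% of a library. Floors and intervals cover counting error only, because PCR reads without molecular identifiers are not independent molecules. All shares below are percent of a library's miRNA counts unless another scale is named.

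The serum profile was dominated by a handful of miRNAs. The tables name 753 mature miRNAs at 832 loci; 371 had a count in at least 1 of the 6 rats, 382 had none, and 119 had at least 5 counts in every rat. These 119 held 99.0% of the counts. A rat had 161.5 ± 17.7 miRNAs with 5 or more counts, from 134 in rat 4 to 179 in rat 2, and 146.3 ± 8.77 when every library was thinned to the lowest total. After thinning rat 4 was still lowest, at 134, and rat 3 was highest, at 159.2, ahead of rat 2 at 151.2.

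In each rat the 5 most abundant miRNAs took 54.3 ± 3.63% of the counts, the 10 most abundant 66.7 ± 2.94% and the 20 most abundant 79.7 ± 1.95%. Between 32 (rat 4) and 43 (rat 3) miRNAs were enough to reach 90% of a library. The effective number of miRNAs, the number of equally abundant miRNAs with the same Shannon entropy, was 27.4 ± 3.91. Over all 6 rats 18 miRNAs had a mean share over 1% and 69 had one over 0.1%.

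**Figure D1:**
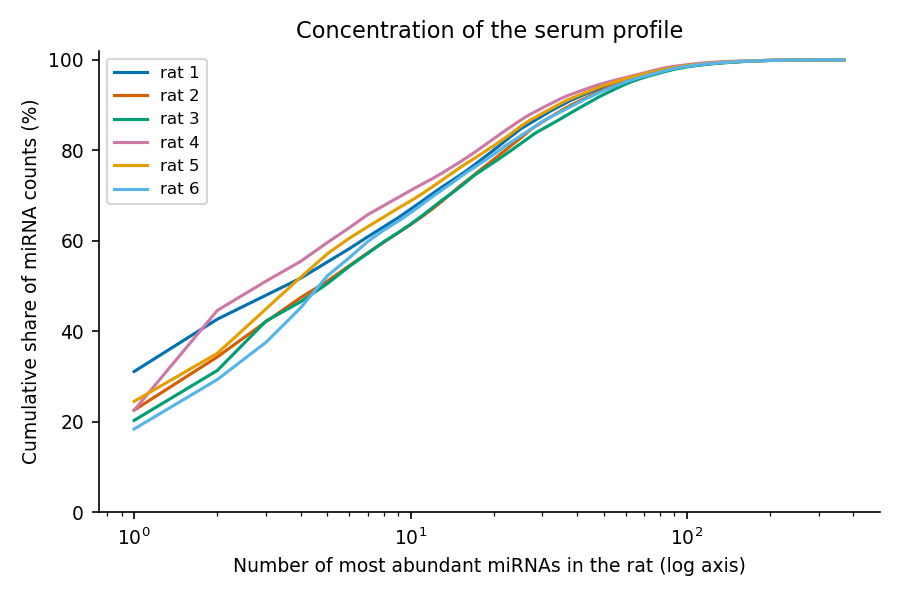
Cumulative share of miRNA counts (percent) against the number of most abundant miRNAs in the rat (log axis), 1 line per rat, n = 6. The lines start between 18.4% (rat 6) and 31.1% (rat 1) and lie between 77.3% and 82.6% at 20 miRNAs, with rat 4 highest and rat 3 lowest there.

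The most abundant miRNA in all 6 rats was miR-191a-5p, a miRNA plentiful in platelets and other blood cells, at 23.3 ± 4.39% of the counts. Its share was 31.1% in rat 1, 22.6% in rat 2, 20.3% in rat 3, 22.6% in rat 4, 24.5% in rat 5 and 18.4% in rat 6. Rat 1 stood above the rest, and the exact binomial 95% interval of its share, 30.8% to 31.5%, is narrow beside the distance between rats. The locus lies on chromosome 8 at 116698881 to 116698904 on rn5, the build named in the submitters' processing notes; the files do not say whether positions count from 0 or from 1.

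Second came miR-143-3p, made in vascular smooth muscle and fibroblasts, from chromosome 18 at 56200210 to 56200232. Its share was 11.6%, 11.8%, 11.04%, 22.05%, 9.81% and 8.22% in rats 1 to 6, a mean of 12.4 ± 4.90%. The other rats were at 11.8% or below, and in rat 4 miR-143-3p (10004 counts) was nearly as abundant as miR-191a-5p (10250 counts).

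Liver miRNAs took ranks 3 and 6. miR-192-5p, plentiful in liver and gut epithelium, came from chromosome 1 at 228620095 to 228620116 and made up 5.30%, 7.79%, 10.9%, 6.46%, 10.6% and 10.9% in rats 1 to 6 (8.67 ± 2.49%). Rats 3, 5 and 6 were near 11% and rat 1 lowest. miR-122-5p, the hepatocyte miRNA and a widely used serum marker of liver injury, came from chromosome 18 at 59956825 to 59956847. It made up 0.405%, 2.86%, 1.86%, 1.77%, 5.20% and 7.07% in the same order (3.19 ± 2.48%). The highest rat was 17.4-fold above the lowest, and miR-122-5p ranked between 5 and 36 in single rats.

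Between these stood miR-22-3p at 5.35 ± 1.61% and miR-128-3p at 3.59 ± 0.386%. miR-22-3p is made in many tissues, muscle and liver among them, and its share was lowest in rat 1 (3.60%) and highest in rat 6 (7.61%). miR-128-3p is best known from brain; its share was 3.74%, 3.67%, 3.78%, 2.90%, 3.42% and 4.01% in rats 1 to 6. Rat 4 had the lowest value and the other rats lay close together. The places after these were taken by miR-21-5p (2.92%), a miRNA of many activated and proliferating cells, miR-30a-5p (2.24%), miR-25-3p (2.21%) and miR-10a-5p (2.20%), which is encoded in a Hox gene cluster.

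Ranks 11 to 20 lay between 0.971% and 1.77% of the counts. They were miR-92a-3p and miR-16-5p, both plentiful in blood cells, miR-328a-3p, let-7i-5p, let-7c-5p, miR-3557-5p, miR-30d-5p, miR-26a-5p, miR-126a-5p and let-7b-5p. Membership of the top 20 was stable for 14 miRNAs, which were in it in every rat, and 26 miRNAs were in it in at least 1 rat.

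The first place was firm, and most of the order below it was loose. Of the 19 neighbouring pairs in the ranking, 3 differed by more than 1 SD of their log2 ratio over rats. They were miR-191a-5p over miR-143-3p (mean log2 ratio 0.96 ± 0.50, in 6 of 6 rats), miR-192-5p over miR-22-3p (0.70 ± 0.33, in 6 of 6) and miR-22-3p over miR-128-3p (0.53 ± 0.42, in 5 of 6). miR-143-3p exceeded miR-192-5p in 4 of 6 rats, with a log2 ratio of 0.50 ± 0.83, so ranks 2 and 3 did not differ beyond the spread. No pair was tested, because the values themselves set the order.

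**Figure D2:**
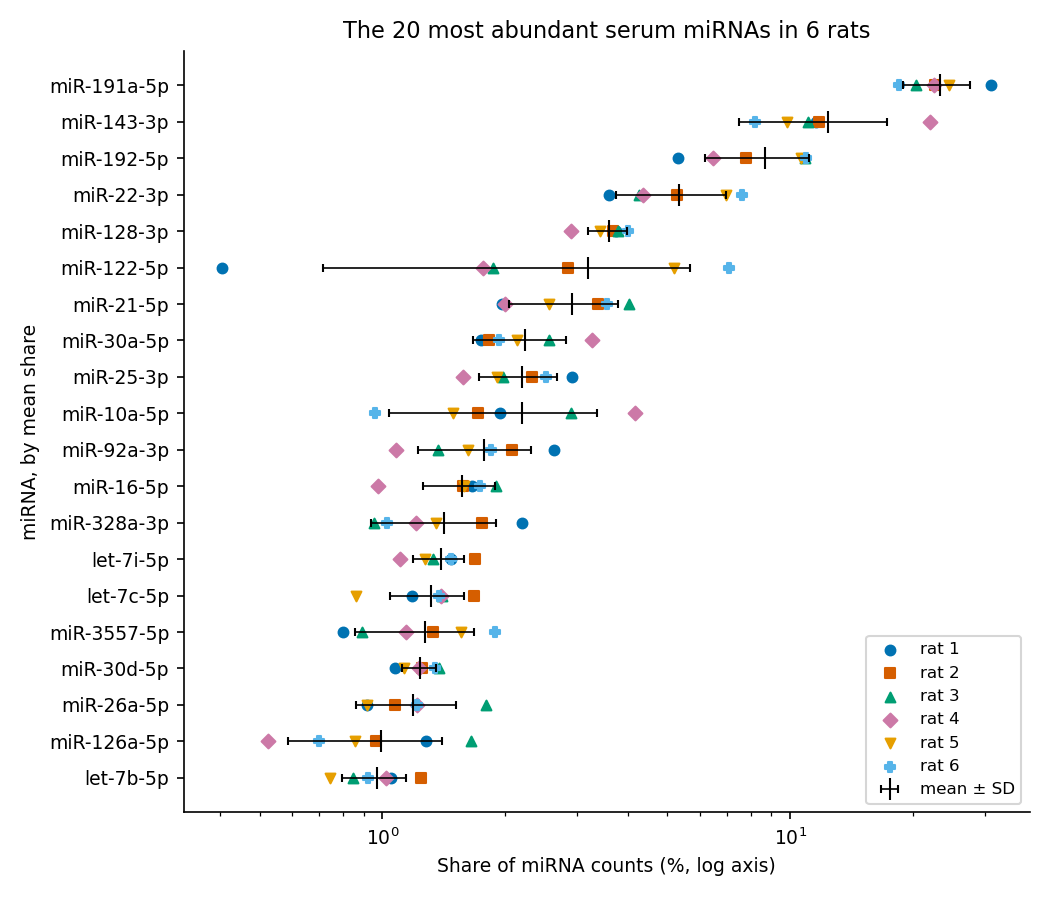
Share of miRNA counts (percent, log axis) of the 20 miRNAs with the highest mean share, 1 marker per rat, with the mean (vertical bar) and SD (horizontal bar), n = 6. miR-191a-5p leads at 23.3%, miR-122-5p runs from 0.405% in rat 1 to 7.07% in rat 6, and rat 4 stands apart for miR-143-3p at 22.05%.

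Some names share loci or reads, which limits what a value of theirs means. let-7c-5p has 2 loci, with 445 and 435 mean counts, so its share is 0.682% from the higher locus alone; how reads that match several loci were placed is not given in the sources used here. Of the miRNAs with a mean of at least 100 counts, miR-103-3p, miR-24-3p and miR-181a-5p were likewise split nearly evenly between 2 loci. By contrast the locus on chromosome 13 gave 98.8% of miR-128-3p, at 50001755 to 50001776.

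Where a pair of names lies on opposite strands with 1 span inside the other, the counts mostly went to the wider name. Of 17 such pairs of loci with a summed mean of at least 1 count, the wider name took over 90% in 15. Whether the width itself decided this was not tested, and miR-29c-3p with miR-3556b is among the 15 at 2 loci. The narrower name, miR-434-3p against miR-3543, took most of the counts in the other 2, which are 2 loci of the same names. Spans that overlap in part followed no such order: miR-126a-5p had 653.8 mean counts and the wider miR-126b 0. miR-3557-5p, rank 16 with 861 mean counts, overlaps miR-378a-3p, a miRNA of metabolic tissues, which has 0 counts in every rat. Likewise miR-3553 had 8.67 mean counts and miR-183-5p 0. Capitals mark the bases that are complementary between the members of a pair, 21 in the first and 22 in the second:
miR-3557-5p: gCCUUCUGACUCCAAGUCCAGU
miR-378a-3p: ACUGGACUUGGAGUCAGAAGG
miR-3553: cAGUGAAUUCUACCAGUGCCAUA
miR-183-5p: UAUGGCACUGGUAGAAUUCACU

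Whether the counting used strand is not given in the sources used here, and without it reads of these pairs cannot be told apart. The 4 opposite-strand pairs with the same span and a summed mean of at least 1 count, such as miR-210-3p with miR-3574, had identical values in every rat. miR-3543, miR-126b, miR-3553, miR-183-5p, miR-210-3p and miR-3574 were singled out after their values were seen.

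Grouped by seed, the profile was mostly a set of single dominant members. The counted sequences held 280 different seeds, and the 10 most abundant families took 71.5 ± 1.91% of the counts, 7 of them through 1 miRNA alone. The 3 with several members were let-7, miR-25/92 and miR-30, whose sequences are given above.

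The let-7 family, whose members restrain growth-promoting genes such as Ras and Hmga2, was the fifth family at 5.10 ± 0.828%. It made up 4.90%, 6.33%, 5.23%, 4.64%, 3.92% and 5.60% in rats 1 to 6. It was spread over 9 members, with let-7i-5p the largest at 27.5 ± 3.17% of the family and let-7c-5p next. Rat 2 was highest and rat 5 lowest.

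The miR-25/92 family, which shares the seed AUUGCAC and comes from the miR-17-92 cluster and its relatives, made up 5.88%, 4.70%, 3.74%, 2.81%, 3.70% and 4.59% (4.24 ± 1.06%). Rat 1 was highest and rat 4 lowest. miR-25-3p gave 52.5 ± 2.73% of it and miR-92a-3p most of the rest, at 1.77 ± 0.549% of the library. The miR-30 members with a sequence here made up 2.78 ± 0.642%, and miR-30a-5p gave 80.5 ± 4.06% of that sum, followed by miR-30e-5p at 0.479% of the library. miR-30d-5p, at 1.23% the second most abundant miRNA of that name, has no sequence here and is outside the sum, so the whole family is larger and the part of miR-30a-5p in it smaller.

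Arm usage was strongly one-sided. Both arms are named for 280 hairpins, of which 64 had a summed mean of at least 50 counts and were tested. In 63 of the 64 (98.4%) the arms differed at an adjusted p under 0.05, 31 with more 5p (48.4%) and 32 with more 3p (50%). The test was an exact two-sided sign-flip permutation test of log2((5p + 1)/(3p + 1)) over the 6 rats, with Benjamini-Hochberg adjustment over hairpins. Each of the 63 had the same arm ahead in all 6 rats and an exact p of 0.03125, the smallest that 6 rats allow, with an adjusted p of 0.0317. With any rat left out the smallest exact p is 0.0625 and no hairpin can pass. Some tested hairpins, among them miR-191a, miR-122, miR-126a, let-7d, miR-3557 and miR-210, overlap another name. Their calls hold only if the reads belong to the hairpin named, which could not be checked.

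The minor arm gave a median of 0.287% of a hairpin's counts; it was under 1% in 39 hairpins and over 10% in 9. For the most abundant hairpins it was close to absent. miR-191a had 15057 mean counts from 5p and 4 from 3p, miR-192 had 5803 and 0.333, and miR-143 had 7735 from 3p and 0.5 from 5p.

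Sequences of both arms are shown for hairpins that communicate the range of arm use, from the endothelial and leukocyte hairpins with a clear leading arm to the most even hairpin:
miR-126a-5p: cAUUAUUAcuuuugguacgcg
miR-126a-3p: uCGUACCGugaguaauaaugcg
miR-142-5p: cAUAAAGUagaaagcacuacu
miR-142-3p: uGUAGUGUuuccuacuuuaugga
miR-181c-5p: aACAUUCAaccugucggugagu
miR-181c-3p: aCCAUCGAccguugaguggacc

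miR-126a, the hairpin of endothelial cells, gave 653.8 mean counts from 5p and 9.17 from 3p, or 98.7 ± 0.846% 5p. miR-142, the hairpin of blood-forming cells, gave 131 from 5p and 2.17 from 3p, or 98.6 ± 1.72% 5p. For both, the 5p arm led in all 6 rats (exact sign-flip permutation, adjusted p = 0.0317). These 2 hairpins are described because they lead the endothelial and leukocyte lists. Whether the library kit or the counting bore on the arm shares was not tested.

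The hairpin that did not pass was miR-181c, whose 5p arm gave 55.9 ± 6.13% of 79.8 and 63.7 mean counts. Its 5p share was 60.2%, 50.6%, 60.5%, 52.0%, 63.2% and 48.8% in rats 1 to 6. The 5p arm was ahead in 5 rats and the 3p arm in rat 6 (exact permutation, adjusted p = 0.09375). It was the one hairpin whose direction differed between rats.

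The next most even hairpins kept 1 direction in all 6 rats. miR-140, a hairpin of cartilage and other mesenchyme, gave 38.5 ± 9.26% 5p, and let-7d gave 33.2 ± 8.19%, so its 3p arm was ahead, unlike the other let-7 hairpins tested, let-7b, let-7g and let-7i, which gave over 99% 5p. miR-423 gave 68.6 ± 2.78% 5p, miR-30e 75.3 ± 5.87% and miR-106b 21.8 ± 5.99%. miR-423 had the smallest spread of these 5, from 64.2% in rat 6 to 71.6% in rat 4.

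**Figure D3:**
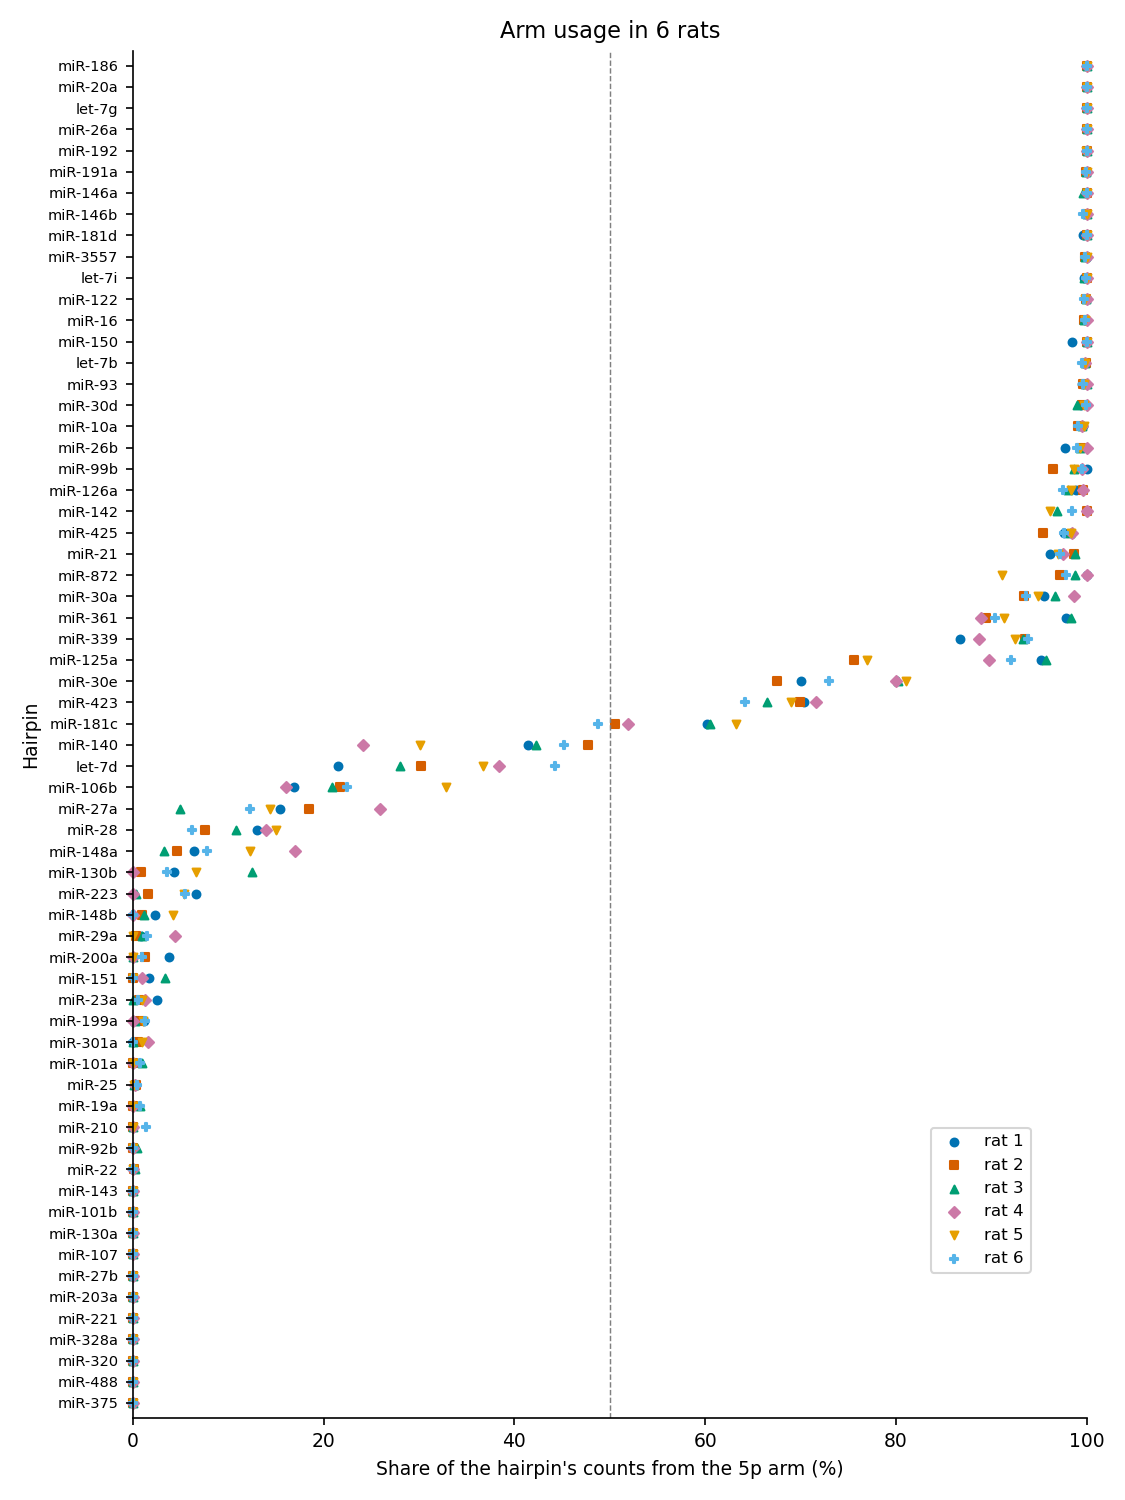
Share of each hairpin's counts that came from the 5p arm (percent), for the 64 hairpins with a summed mean of at least 50 counts, 1 marker per rat, n = 6; the dashed line marks 50%. Most hairpins lie at either edge, miR-181c straddles the line from 48.8% to 63.2%, and miR-140 and let-7d lie below it in every rat.

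To describe where serum miRNAs may come from, 13 lists of miRNAs known from particular cells or tissues were summed. The lists were chosen with earlier results of these data known. They held 204 names and 59.2 ± 1.97% of the counts. A list's share is a part of a library's miRNA counts and not a concentration in serum. It gives no amount released by a tissue, because many members are made in several tissues.

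The platelet list had the largest sum, 29.7 ± 4.08%, from 25.3% in rat 6 to 37.2% in rat 1. Of that sum 77.8% was miR-191a-5p, followed by miR-21-5p, and both are also made in other cells. Without miR-191a-5p the list held 6.40%, less than the whole smooth muscle and mesenchyme list (12.9%) or the whole liver list (11.9%). Its first place thus rests on that miRNA. The endothelium list, which is the hairpin miR-126a, shared with the platelet list, held 1.01 ± 0.417%. It was 1.68% in rat 3 and 0.527% in rat 4.

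Smooth muscle and mesenchyme came next at 12.9 ± 5.02%, from 8.62% in rat 6 to 22.8% in rat 4. Nearly all of it, 95.9%, was miR-143-3p. miR-199a-3p added 0.469 ± 0.160%, and miR-145-5p, which is cut from the same primary transcript as miR-143, had 17.8 mean counts against 7735 for miR-143-3p.

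The liver list held 11.9 ± 4.64% and made up 5.72%, 10.7%, 12.8%, 8.23%, 15.9% and 18.1% in rats 1 to 6. miR-192-5p was 71.8% of it and miR-122-5p most of the rest. Rat 1, highest for the platelet list, was lowest for the liver list, and rat 6, lowest for the platelet list, was highest for the liver list. Shares of a library sum to 100%, so a high share of an abundant miRNA lowers the others.

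The neuron list held 3.62 ± 0.391%, and 99.2% of it was miR-128-3p. The defining neuronal miRNAs were at or near 0: both arms of miR-124 had 0 counts in every rat, and miR-9a-5p had 2.17 mean counts. The next member, miR-218a-5p, had 7 mean counts. The neuron list was thus 1 miRNA with no other member at a comparable level. miR-488-3p, known from brain and described below, is not on the list and had 87.7 mean counts.

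Leukocyte miRNAs held 0.513 ± 0.245%, led by miR-142-5p and the myeloid miR-223-3p. They were highest in rat 3, at 0.962%, and lowest in rat 4, at 0.260%. Epithelial miRNAs held 0.462 ± 0.108%, led by miR-203a-3p, a miRNA of stratified epithelium, and miR-200a-3p; miR-205 had 10.0 mean counts. The neuroendocrine and islet list held 0.133 ± 0.0529%, from 0.0881% in rat 5 to 0.237% in rat 3, and 89.9% of it was miR-375-3p. Its next member was miR-7a-5p, at 8 mean counts.

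Striated muscle differed most between rats among the lists with a count in every rat. It held 199 counts in rat 1, 90 in rat 2, 46 in rat 3, 8 in rat 4, 54 in rat 5 and 36 in rat 6, or 0.113 ± 0.120%. Rat 1 was at 0.349% and rat 4 at 0.0176%. The mean was 0.0654% without rat 1. The list was led by miR-1-3p, the skeletal and heart muscle miRNA, with 97 counts in rat 1 and 0 in rat 4, and by miR-206-3p of skeletal muscle, with 58 and 1. The heart miRNAs miR-208a and miR-208b had 0 counts in every rat. miR-1b, which has the same seed as miR-1-3p, is not on the list. It had 40.5 mean counts against 33 for miR-1-3p, and the sums above leave it out.

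The red cell miRNAs on the erythroid list, miR-451 and miR-144, were low. The erythroid list held 0.0830 ± 0.0333%, led by miR-451-5p, the dominant miRNA of red cells, at rank 94 with 0.0514 ± 0.0223%, and by miR-144-3p with 11 mean counts. miR-486, another red cell miRNA, was not analysed here. miR-92a-3p (1.77%) and miR-16-5p (1.57%), both plentiful in blood cells, are not on this list. The log2 ratio of miR-451-5p to miR-23a-3p, which rises when red cells break open, was −1.57, −3.06, −2.40, −2.23, −1.99 and −1.59 in rats 1 to 6 (−2.14 ± 0.56, pseudocount 0.5 counts). miR-23a-3p exceeded miR-451-5p in all 6 rats, by least in rats 1 and 6 and by most in rat 2.

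The remaining lists were at the edge of detection. The imprinted Dlk1-Dio3 cluster, active in embryo, placenta, brain and muscle, held 0.0245 ± 0.00809%, with 21 of its 74 names counted, led by miR-434-3p (4 mean counts) and miR-136-3p (1.67), and none with 5 counts in every rat. The testis list held 0.00844 ± 0.00668%, led by miR-34b-3p (2.5 mean counts) and miR-449a-5p (1.33), both also made in ciliated epithelium. The exocrine pancreas list, led by miR-217-5p (2 mean counts) and miR-216a-5p (0.5), held 0.00409 ± 0.00355% and had 0 counts in rat 2, which allows a share of up to 0.00339%.

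**Figure D4:**
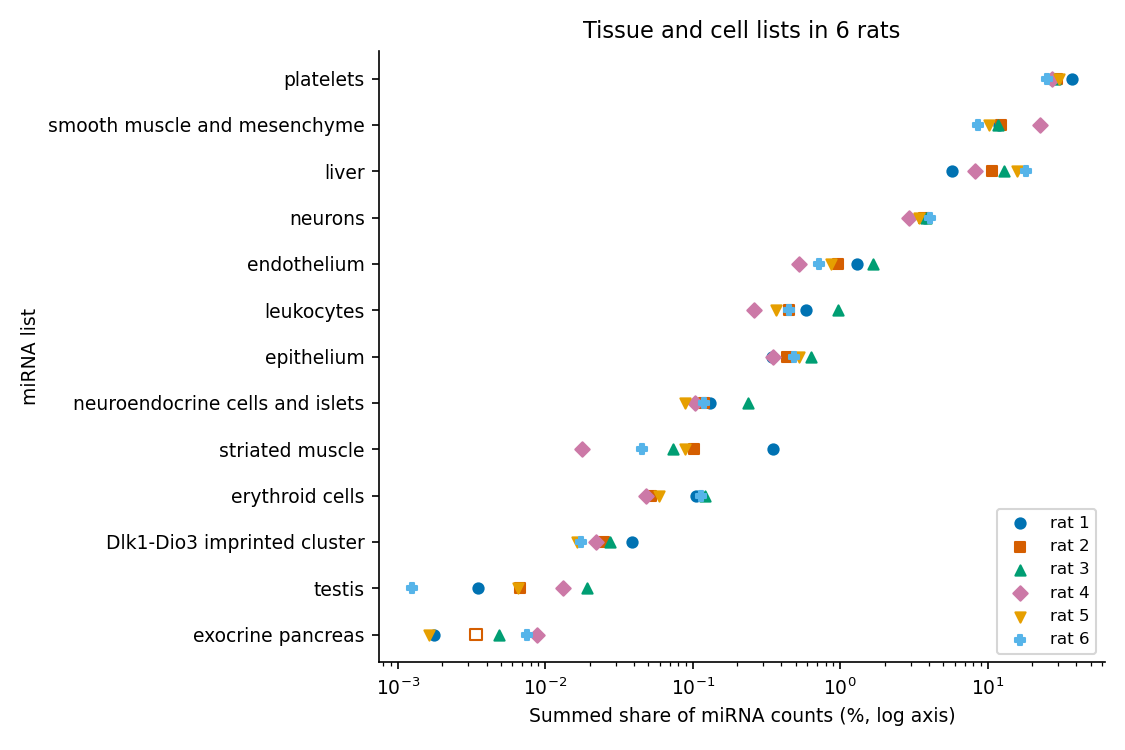
Summed share of miRNA counts (percent, log axis) for 13 tissue and cell lists, 1 marker per rat, n = 6; the open square is the limit that 0 counts allows in rat 2. The platelet list leads at 25.3% to 37.2%, the liver list runs from 5.72% to 18.1%, and striated muscle spans 0.0176% to 0.349%.

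The rats resembled each other closely in rank order. Over 129 miRNAs with a mean of at least 10 counts, the 15 pairs of rats had Spearman correlations of 0.920 to 0.972 (median 0.945), across miRNAs, which are not independent replicates. The chi-square of counts per degree of freedom was 13.5 to 68.6 between pairs, so no pair looked like 1 library deposited again.

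The spread between rats was measured as the coefficient of variation (CV) of CPM, counts scaled to a common miRNA total, for the 60 miRNAs with a mean of at least 100 counts. The median CV was 27.2%, with a range of 8.04% to 77.6%, where counting error alone gives a median of 5.77%. With counting error removed the median was 26.2%. The common biological CV from an intercept-only edgeR fit over 106 miRNAs was 28.3%. Of the 60 miRNAs, 2 had a CV under 2 times their counting error.

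The widest spread belonged to miR-122-5p of liver, with a CV of 77.6% and 4051 to 70674 CPM. miR-223-3p of neutrophils and platelets followed at 66.2%, from 749 CPM in rat 4 to 4249 in rat 3. miR-101b-3p had a CV of 53.0%, lowest in rat 1 and highest in rat 6, as for miR-122-5p. miR-10a-5p had 52.7%, lowest in rat 6 (9599 CPM) and highest in rat 4 (41678 CPM).

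miR-27a-3p had a CV of 42.4% and miR-142-5p of blood-forming cells 41.6%, both lowest in rat 4 and highest in rat 3. Without rat 3 the CV of miR-142-5p was 25.5%. Of the 60 miRNAs, 4 had a CV over 50%. These values are on the scale of the miRNA total. With TMM and with DESeq2 size factors 4 of the 6 widest stayed among the 6 widest, and miR-122-5p stayed first. miR-27a-3p and miR-142-5p did not stay, with a CV of 32.8% and 33.4% by DESeq2 size factors.

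On the scale of the miRNA total the steadiest was miR-181a-5p, a miRNA of lymphocytes and many other cells, with a CV of 8.04% and 3983 to 4963 CPM, close to its counting error of 5.96%. miR-30d-5p had 9.56%, miR-128-3p 10.7%, miR-24-3p 10.8%, miR-151-3p 11.5% and miR-181d-5p 12.9%. Single rats set part of these values: the CV was 5.70% for miR-128-3p without rat 4, 4.20% for miR-151-3p without rat 6 and 7.79% for miR-181d-5p without rat 2. All of these depend on the scale. The CV of miR-181a-5p was 12.9% with TMM and 17.6% with DESeq2 size factors, and the lowest CV on both scales was that of miR-128-3p, at 4.65% and 6.16%. With TMM the CV of miR-24-3p was 6.28%, and with DESeq2 size factors that of miR-151-3p was 19.4%. With the implied read total in place of the miRNA total the median CV over the 60 was 54.0%, the largest was that of miR-223-3p at 112%, and none of the 6 steadiest stayed among the 6 lowest.

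On the scale of the miRNA total, departures fell mainly on particular rats. Rat 3 had the highest CPM in 19 of the 60 miRNAs and rat 4 the lowest in 19. Rat 1 had the highest in 16 and the lowest in 18. Rat 5 had the highest in 1 and rat 2 the lowest in 2. The TMM factor was 1.06 in rat 3 and 0.881 in rat 4. The miRNA total thus puts rat 3 higher and rat 4 lower than TMM scaling does, and these numbers were not worked out on other scales.

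**Figure D5:**
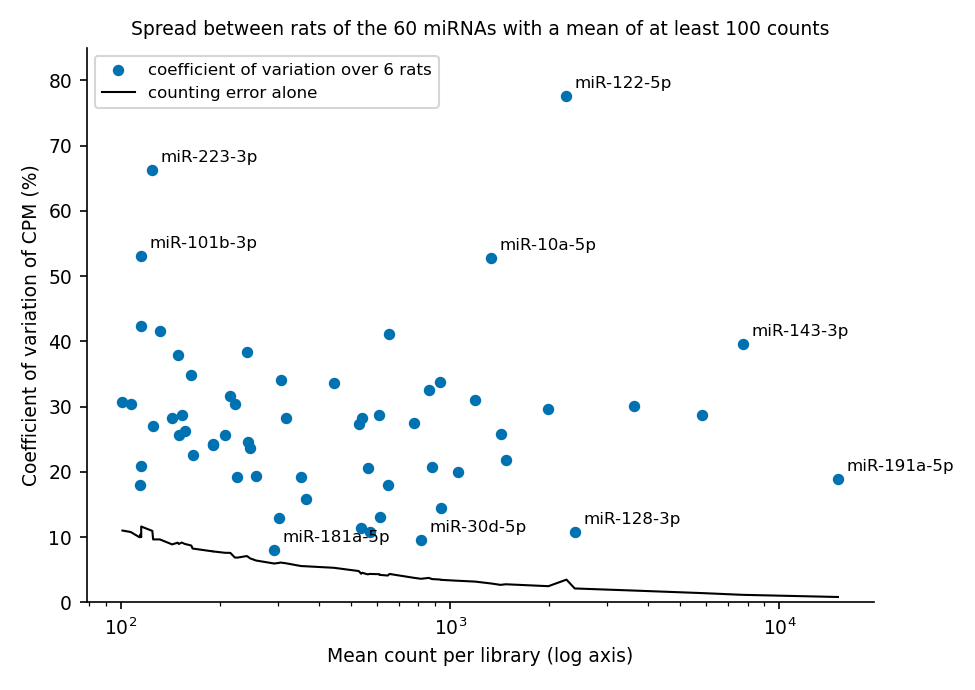
Coefficient of variation of CPM over 6 rats (percent) against mean count per library (log axis) for the 60 miRNAs with a mean of at least 100 counts, 1 point per miRNA, with a line for counting error alone. miR-122-5p lies highest at 77.6%, and miR-181a-5p at 8.04% lies nearest the line.

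Members of a cluster are cut from 1 primary transcript, so it was asked whether their shares of the counts moved together between rats. Of 10 pairs, miR-182 with miR-183-5p was left out because of a mean under 10 counts. For the other 9, Pearson's r of log2 CPM over 6 rats was tested by exact permutation and adjusted by Benjamini-Hochberg over the 9; 3 pairs passed at an adjusted p under 0.05. None of the 9 passed by Spearman's rho, where the lowest adjusted p was 0.075. Apart from the liver pair miR-122-5p and miR-192-5p, no pair from different transcripts was tested beside them. A pass therefore does not show that cluster partners moved together more than other miRNAs did.

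miR-23b-3p and miR-27b-3p had r = 0.970 (exact p = 0.00278, adjusted 0.025; rho = 0.943, exact p = 0.0167, adjusted 0.075), and r was 0.996 without the 2 rats farthest from the median of miR-23b-3p. miR-25-3p and miR-93-5p had r = 0.929 (exact p = 0.00694, adjusted 0.03125; rho = 0.943, exact p = 0.0167, adjusted 0.075), and r was 0.827 without such rats. miR-17-5p and miR-20a-5p of the miR-17-92 cluster had r = 0.900 (exact p = 0.0153, adjusted 0.0458; rho = 0.771, exact p = 0.103, adjusted 0.185), and 0.804 without them. With a rat left out, r ran from 0.947 to 0.979 for the first pair, 0.854 to 0.967 for the second and 0.802 to 0.952 for the third, and with TMM scaling r was 0.907, 0.861 and 0.824. The calls were lost more readily: no pair passed with TMM, or when rat 1, 2, 4, 5 or 6 was left out, where each r rests on 5 points. Without rat 3 the first and second pairs passed (exact permutation, adjusted p = 0.0333 for both).

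The other pairs did not pass. miR-192-5p and miR-194-5p had r = 0.853 (exact p = 0.0278, adjusted 0.05; rho = 0.886, exact p = 0.0333, adjusted 0.1). The liver pair miR-122-5p and miR-192-5p, which come from different transcripts, had r = 0.822 (exact p = 0.0278, adjusted 0.05; rho = 0.829, exact p = 0.0583, adjusted 0.131). Without the 2 farthest rats these were 0.646 and 0.442, and without rat 3 the liver pair passed (r = 0.957, exact permutation, adjusted p = 0.0333). miR-451-5p with miR-144-3p had r = 0.631, miR-143-3p with miR-145-5p 0.463, miR-191a-5p with miR-425-5p 0.425 and miR-181c-5p with miR-181d-5p −0.340 (exact permutation, adjusted p = 0.277, 0.411, 0.463 and 0.543, with rho of 0.714, 0.600, 0.429 and −0.371). Rat 3 set much of the value for miR-143-3p with miR-145-5p, where r was 0.995 without it (exact permutation, adjusted p = 0.0333) and 0.283 without rat 6. With the implied read total as the scale 8 of the 9 passed, miR-181c-5p with miR-181d-5p among them at r = 0.828, and miR-122-5p with miR-192-5p was the pair that did not (r = 0.733). On that scale all miRNAs of a rat share 1 factor, the miRNA part of its implied read total (0.848% to 2.34%). A pass there therefore cannot tell cluster partners from other miRNAs.

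Partners of 1 cluster differed widely in counts. miR-192-5p had 5803 mean counts and miR-194-5p 18.2, of which 8.67 are given at the locus beside miR-192 on chromosome 1 and 9.5 at a locus on chromosome 13. Likewise miR-191a-5p had 15057 and miR-425-5p 226. The log2 ratio was 8.91 ± 0.81 for miR-143-3p over miR-145-5p and 8.45 ± 0.52 for miR-192-5p over miR-194-5p. miR-25-3p exceeded miR-93-5p by a log2 ratio of 2.00 ± 0.13, the steadiest ratio among the 9 pairs.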

How the data were processed

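Small RNA libraries from the serum of 6 rats were used. The authors' tables give, per mature miRNA locus, expected counts and reads scaled to a library total (RPM) in a second deposited table. The expected counts are called estimates because 34 of the 832 loci hold fractions in these rats. Per the submitters' processing notes, bcl2fastq, Partek, Bowtie 1.0.0 and rn5 were used; no source used here gives the annotation, the filters or the handling of reads with several matches. The deposited RPM values served only to work out the total the authors divided by (the implied read total).

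Loci were summed by name and rounded to whole counts (753 names). Shares, CPM, coefficients of variation, seed families (bases 2 to 8) and list sums were computed in Python 3.11.15 (pandas 2.3.3, SciPy 1.17.1). Arms were tested by exact sign-flip permutation (pseudocount 1, summed mean of at least 50 counts) and cluster pairs by exact permutation (means of at least 10 counts). edgeR 4.0.16 gave TMM factors and the biological coefficient of variation, and DESeq2 1.42.0 gave size factors (R 4.3.3). The counting part of a coefficient of variation is that of Poisson counts at each library's total. The arm and pair scripts were tested on simulated data.

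Named were the top 20 miRNAs by mean share, the leading 2 of each list and of the 10 largest seed families, the 6 largest and 6 smallest coefficients of variation among means of at least 100 counts, the 6 most even hairpins and both members of each cluster pair. The rats, lists and pairs were chosen with earlier results of these data known. Each rat is 1 replicate, and no pair of libraries agreed within sampling noise. No other group of the study was compared.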

Additional observations from a re-analysis of the deposited data

Results flagged for a closer look

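Of 57 measures with 6 rats (shares of named miRNAs, families, lists and even arms, and library measures), 8 had a rat whose gap to its nearest neighbour was a larger part of the whole range than Dixon's 95% limit for 6 samples allows. Chance marks about 1 in 20 groups that were not picked by their spread, and several of the 8 measures overlap. The 57 include the 6 miRNAs with the largest and the 6 with the smallest CV in these same rats. Of the flagged measures, miR-223-3p and miR-151-3p entered only in that way, so the rate does not hold for them.

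Rat 4 had 22.05% miR-143-3p, where the other rats had 8.22% to 11.8%, and with it 22.8% for the smooth muscle and mesenchyme list, where the others had 8.62% to 12.4%. miR-143-3p makes up nearly all of that list, so the measures are not independent. Rat 4 also had the lowest miR-16-5p, a miRNA plentiful in blood cells, at 0.976% against 1.58% to 1.90%. Rat 4 was the library with the fewest miRNA counts, 45372. The part of depth in these values was not tested.

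Rat 3 had 0.425% miR-223-3p, a miRNA of myeloid cells, against 0.0749% to 0.196%, 1.80% miR-26a-5p against 0.915% to 1.22%, and 0.237% for the neuroendocrine and islet list, mostly miR-375-3p, against 0.0881% to 0.132%. In rat 3 miRNA counts made up 2.34% of the implied read total, the highest of the 6.

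Rat 1 had 0.349% for the striated muscle list, against 0.0176% to 0.102% in the others. Rat 6 had the lowest miR-151-3p, at 0.646% against 0.837% to 0.926%.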

How the results depend on the processing

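The 5, 10 and 20 most abundant miRNAs kept their shares within 1 SD under every alternative run (highest locus only, names that share reads left out but for 1, each rat left out). Detected miRNAs per rat, 161.5 at the limit of 5 counts, became 264.8 at 1 or more counts and 130.7 at 10 or more, and 158 to 167 with a rat left out. The hairpins called numbered 80 and 47 at minimum summed means of 20 and 100 counts, and 63 at pseudocounts of 0.5 and 5. With any rat left out the smallest exact p is 0.0625, so 0 to 0 hairpins were called, by construction. The median CV was 23.6% with TMM, 22.2% with DESeq2 size factors, 54.0% with the implied read total, 77.9% with no filter on low counts, and 24.7% to 28.6% with a rat left out. Cluster pairs past the threshold numbered 0 with TMM, 8 with the implied read total and 0 to 4 with a rat left out (4 without rat 3, with miR-143-3p and miR-145-5p and miR-122-5p and miR-192-5p gained and miR-17-5p and miR-20a-5p lost). The correlation of miR-191a-5p with miR-425-5p ran from −0.12 without rat 1 to 0.62 without rat 6, and that of miR-181c-5p with miR-181d-5p became 0.83 with the implied read total and ran from −0.53 without rat 4 to 0.14 without rat 2; the cause was not tested. Without its leading member the liver list held 3.23% and the neuron list 0.0294%. Depth limits the rarest lists: 3 counts are 33.9 to 66.1 CPM. No pairing of rats between groups was possible because only 1 group was used. The arm test pairs the 2 arms within each rat.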

Other observations

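The first base of the miRNA, which sits in a pocket of the Argonaute protein that favours U and A, was U in 138 of the 342 counted names with a sequence (40.4%) and in 47.3 ± 4.01% of their counts (SD, n = 6 rats). C began 22.8% of the names and 40.6 ± 4.06% of the counts, with miR-191a-5p the largest. Without the 3 most abundant miRNAs, U held 64.4 ± 1.99% and C 12.9 ± 2.22%. A began 27.2% of the names and 10.3 ± 1.72% of the counts, and G 9.65% and 1.80 ± 0.457%. The count-weighted mean length was 22.2 bases and the weighted GC content 47.4%, against 21.97 bases and 48.7% over names.

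By place in the genome (rn5), loci on chromosome 8 gave 25.8 ± 4.08% of the counts from 33 of the 832 loci, led by miR-191a-5p. Chromosome 18 gave 16.99 ± 4.25% from 22 loci, led by miR-143-3p. Chromosome 6 has the most loci, 129, and gave 0.360 ± 0.0801%, led by miR-203a-3p. The X chromosome has 112 loci and gave 1.20 ± 0.188%, led by miR-221-3p, a miRNA of vessel wall and blood cells.

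miR-488-3p, a miRNA known from brain and chosen here after its values were seen, was counted 42 to 144 times per rat with 0 counts from its 5p arm in any rat. It had a mean share of 0.132 ± 0.0513%, above miR-451-5p, the leading member of the erythroid list, at 0.0514%.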
